A study of Arabidopsis thaliana with 35 samples.

Results

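Trimethylation of histone H3 at lysine 36 (H3K36me3) was compared between Arabidopsis thaliana seedlings returned from cold to normal growth and seedlings never exposed to cold. The comparison rests on 4 of the 35 samples of the series, chosen by their labels: 2 H3K36me3 chromatin immunoprecipitation (ChIP-seq) libraries without cold (NV) and 2 taken after 40 d of cold followed by 10 d back in normal growth (T10). All plants in the series were Col-0 carrying a functional FRI allele, the activator of the floral repressor FLC, so that the flowering-time background was shared by both groups. Normal growth was at 22 °C with 16 h of light, and whole seedlings were used. A further 2 H3K36me3 libraries from 40 d of cold (40V), the H3K4me3 and H3K27me3 libraries of the same time points, and RNA-seq of the same conditions were read beside the comparison. The labels do not say whether replicates came from separate growths, so p-values measure only the spread between these samples, which may be technical.

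H3K36me3 is laid down behind elongating RNA polymerase II and in plants covers the bodies of transcribed genes, where it counters Polycomb silencing by H3K27me3. In Arabidopsis most H3K36 di- and trimethylation depends on the methyltransferase SDG8, which is recruited with the transcription machinery. At FLC, cold replaces H3K36me3 and H3K4me3 by H3K27me3, and the silenced state is kept after return to warmth, which permits flowering.

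The measure was the share of a gene body that lay inside the authors' H3K36me3 peaks in 1 library, called coverage here and given in percent. A gene was called marked where coverage reached 50%. A gene was called gained where it was marked in both T10 libraries and in neither NV library, and lost where it was marked in both NV libraries and in neither T10 library; these are rules of non-overlap and carry no p-value. The same coverage was also tested across 14272 genes with limma, a linear model that shares the estimate of spread between genes, on all 6 H3K36me3 libraries.

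The H3K36me3 landscape after return was close to the one before cold. In NV replicates 1 and 2 there were 12191 and 12243 nuclear peaks covering 25.1 and 26.9 Mb, and in T10 replicates 1 and 2 there were 11990 and 12085 peaks covering 23.1 and 25.3 Mb. The covered length differed by -1.81 Mb (exact two-sided permutation test, p = 0.667, n = 2 against 2), and peak number by -179.5 (exact permutation p = 0.333, the smallest this design allows). The peak territory shared by the NV replicates was 90.6% of their union, that shared by the T10 replicates 86.8%, and that shared by an NV and a T10 library 82.2% to 90.6%, so a pair across groups overlapped about as well as a pair within one. Of 27444 nuclear protein-coding genes, 9020 were marked in all 4 libraries and 15803 in none. Among reference genes, 9 of 10 widely expressed genes were marked in all 4 libraries, all but UBQ10, and 10 of 10 genes known as Polycomb targets carried no peak in any of them.

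The number of tags compared in peak calling went with the group, although total tags did not. Total tags were 54.1 and 53.0 M in NV and 59.5 and 23.8 M in T10. The libraries held 15.3 and 23.3 M filtered tags in NV and 8.49 and 16.7 M in T10, and the inputs they were called against held 19.5 and 12.2 M. The peak caller scales the larger of ChIP and input down to the smaller, which left 15.3 and 19.5 M tags in NV and 8.49 and 12.2 M in T10. By this measure every T10 library was shallower than every NV library, and for a loss of peaks depth and condition cannot be told apart. The NV and T10 libraries closest in filtered tags, NV replicate 1 and T10 replicate 2, gave 562 genes marked only in the NV library and 623 marked only in the T10 library, against 863 and 138 for the 2 directions between the NV replicates and 1373 and 172 between the T10 replicates.

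**Figure D1:**
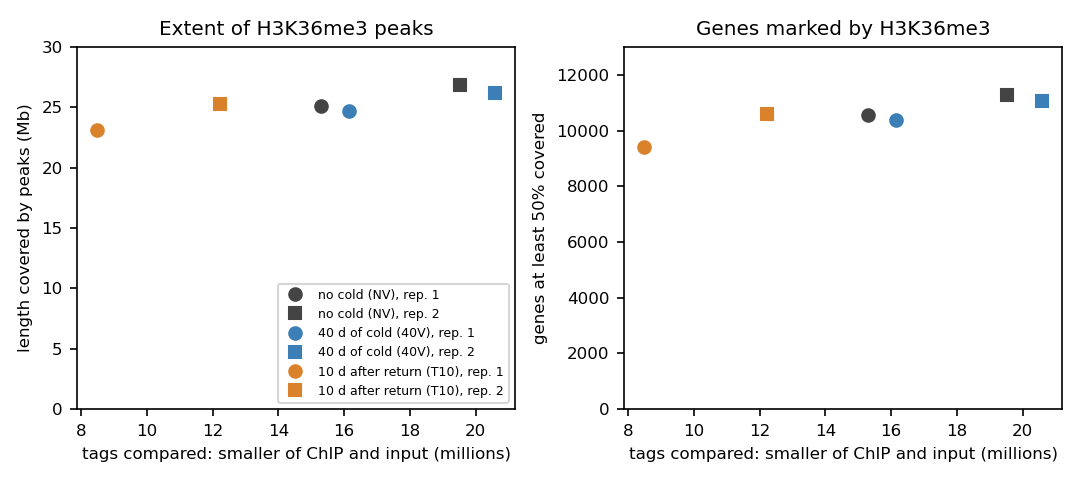
Length covered by H3K36me3 peaks (left, Mb) and number of protein-coding genes at least 50% covered (right) in each of the 6 H3K36me3 libraries, against the smaller of the ChIP and input tag numbers (axis in M tags). Circles are replicate 1 and squares replicate 2; both T10 libraries lie left of every other library, and T10 replicate 1, at 8.49 M tags, has the shortest covered length (23.1 Mb) and the fewest marked genes (9410).

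By the rule of non-overlap, 71 genes gained H3K36me3 after return, which is 0.259% of all protein-coding genes, and 389 lost it (1.42%). Most of these calls were small shifts around the 50% line: the median gap between the nearest libraries of the groups was 15.2 points of coverage for gained and 6.15 points for lost genes. Just inside the rule, TGH, an RNA-processing factor chosen here after its values were seen, and the other narrowest losses differed by less than 1 point, and the gained gene with the narrowest gap, AT4G22840, had coverages of 44.8% and 49.9% in NV and 50.02% and 54.6% in T10. A gap of at least 25 points was reached by 23 gained (0.0838%) and 39 lost genes (0.142%). Since fewer libraries make the rule looser, the numbers of gained and lost genes were 103 and 787 without NV replicate 1, 186 and 460 without NV replicate 2, 171 and 464 without T10 replicate 1, and 128 and 1317 without T10 replicate 2.

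The limma test on coverage called 61 genes higher (0.427%) and 112 lower (0.785%) after return at an adjusted p under 0.05, Benjamini-Hochberg over 14272 genes. It called 20 of the 23 gained and 25 of the 39 lost genes with a gap of at least 25 points, and 0 of 48 and 4 of 350 of those with a narrower one (at an unadjusted p under 0.05 it had 242 genes higher and 1510 lower). Of the 61 genes called higher, 53 had no peak in either NV library, and of the 112 called lower, 98 had no peak in either T10 library. The calls were thus mainly of whole peaks present in one group and absent in the other. This pattern is partly built into the test. Coverage is bounded at 0%, and a group at 0% in both libraries adds no spread, so such genes are called more readily. Both 40V libraries were also at 0% on 47 of the 61 and 51 of the 112. Over all tested genes the median difference was -2.96 points (quartiles -6.06 to -0.28), with 77.5% of genes below 0, and setting the library means equal gave 43 higher and 54 lower. Without NV replicate 1 the counts were 39 and 188, without NV replicate 2 they were 48 and 124, without T10 replicate 1 they were 106 and 58, and without T10 replicate 2 they were 113 and 128. In whole seedlings, more mark per cell and more cells with the mark cannot be told apart.

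The peaks that came or went were weak ones. In T10 replicates 1 and 2 the strongest peak on gained genes with a gap of at least 25 points had a median fold enrichment over input of 2.71 and 2.22, in the authors' peak lists, against 4.62 and 4.50 over all genes with a peak in that library. On lost genes with such a gap the median in NV replicates 1 and 2 was 2.18 and 1.90, against 4.33 and 4.04. In the same libraries the genes marked in all 4 had medians of 5.02 and 4.84 in T10 and 4.70 and 4.32 in NV. These fold values describe each list and were not compared between libraries.

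The gained genes with the widest gaps had varied roles. NAC046, a NAC transcription factor that promotes leaf senescence and chlorophyll breakdown, had 0% coverage in both NV and both 40V libraries and 74.7% and 74.9% in T10, a difference of 74.8 points (SE 2.24, limma adjusted p = 0.00524). Its peaks lay at chr3:1053665-1055037 in T10 replicate 1 and chr3:1053672-1055047 in replicate 2 (TAIR10), with fold enrichments of 2.16 and 2.04. The T10 peaks of the replicates began and ended within about 10 bp of each other. ORE1, another NAC factor at the centre of leaf senescence, was at 0% in NV, 0% and 52.3% at 40 d of cold and 57.2% and 64.7% in T10; because 1 cold library carried the peak, the spread was wide, with a limma adjusted p of 0.349 (0.043 on the 4 NV and T10 libraries alone).

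SYP122, a plasma membrane syntaxin of secretion and defence, had no peak in NV or at 40 d of cold and coverages of 66.8% and 63.0% in T10 (64.9 points, SE 2.54, limma adjusted p = 0.00524). ATL15, a RING-type ubiquitin ligase gene, went from 0% to 61.5% and 59.2%, and MOT1, a molybdate transporter gene, from 0% to 70.8% and 61.6%. ELF5A-1, which encodes a translation factor of the eIF5A family, went from 0% to 70.2% and 74.5%. On all 4 genes the groups were fully apart and both cold libraries were at 0%, as in NV. With each library cut to its 11000 peaks of highest −log10 q, an alternative chosen after seeing the data, NAC046 had no peak left, the limma calls of SYP122, ATL15 and MOT1 were lost (adjusted p = 0.591 for each), and that of ELF5A-1 was not (adjusted p = 0.00331).

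Not every gain was a new peak. AT4G39580 was covered at 16.0% and 8.07% in NV and at 100% and 98.1% in T10, but a peak was present beside it in all libraries: it spanned chr4:18384229-18385864 in NV replicate 1 and chr4:18384379-18386847 in T10 replicate 1. The peak grew from 1636 and 1502 bp in the NV libraries to 2469 and 2473 bp in T10, at fold enrichments of 4.73, 3.68, 4.87 and 4.18. AT1G61410, at 0% in NV and 78.7% and 74.2% in T10, already had 95.6% and 87.7% at 40 d of cold and kept the peak after return.

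**Figure D2:**
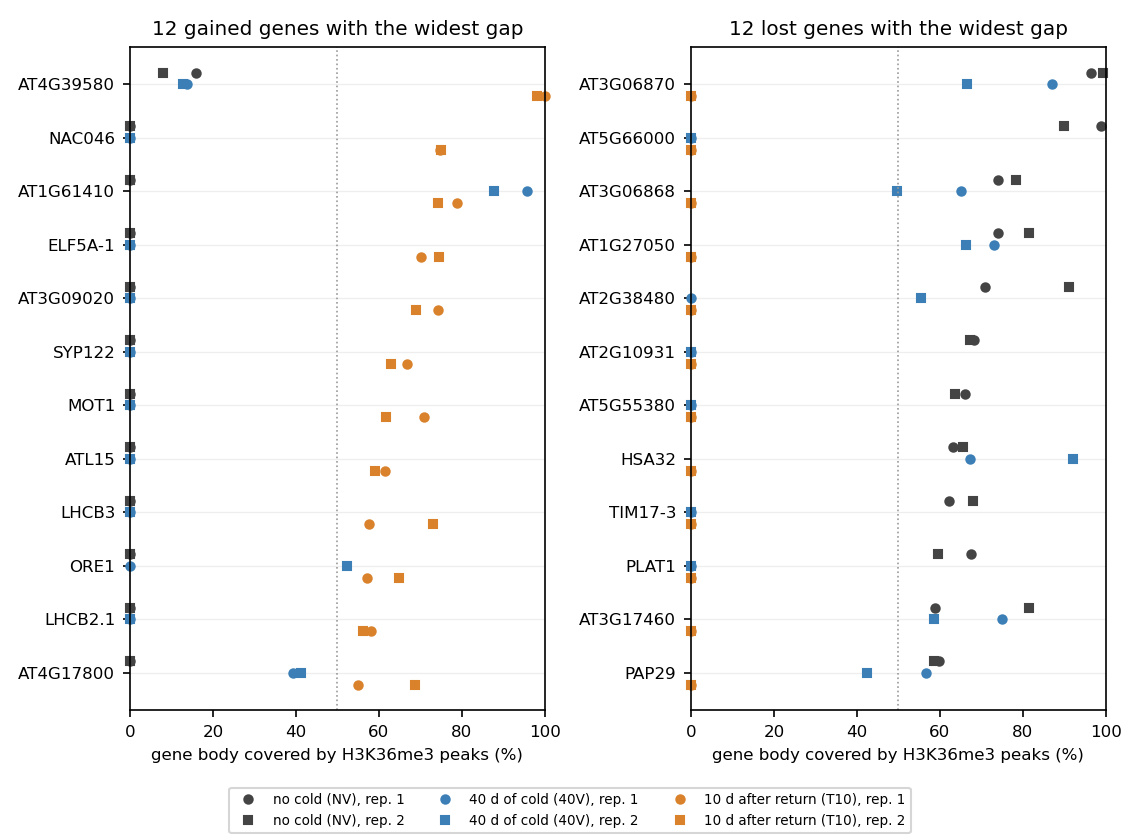
Percent of the gene body covered by H3K36me3 peaks in each of the 6 libraries for the 12 gained (left) and 12 lost genes (right) of at least 1000 bp with the widest gap between NV and T10; circles are replicate 1, squares replicate 2, and the dotted line is the 50% used to call a gene marked. Most gained genes sit at 0 in both NV and 40V libraries, and the lost genes sit at 0 in both T10 libraries while the 40V libraries are high on some and at 0 on others.

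The widest gaps among losses were on AT3G06870 and AT5G66000. AT3G06868, next in that order, overlaps AT3G06870, shares its peaks and is no separate event. AT3G06870 had 96.4% and 99.4% coverage in NV, 87.1% and 66.6% at 40 d of cold and 0% in both T10 libraries (-97.9 points, SE 7.07, limma adjusted p = 0.0132, and 0.0777 to 0.111 when any 1 library was left out). The NV replicate 1 peak lay at chr3:2167815-2168920 with a fold enrichment of 2.59. AT5G66000, at 98.8% and 89.8% in NV, was at 0% in the cold as well as after return. HSA32, needed for long-lasting acquired heat tolerance, had 63.1% and 65.5% in NV, 67.3% and 92.0% in the cold and 0% after return, but missed the limma threshold (adjusted p = 0.0694).

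Other lost genes with wide gaps serve varied roles. TIM17-3, of the mitochondrial protein import family, went from 62.3% and 67.9% to 0% and was also at 0% in both cold libraries. PLAT1, a PLAT-domain protein gene of the stress response, went from 67.5% and 59.5% to 0% in the same way. PAP29, a purple acid phosphatase gene, went from 59.8% and 58.7% in NV through 56.7% and 42.4% in the cold to 0%. Overlap with another gene was common. Of lost genes with a gap of at least 25 points, 53.8% shared sequence with an annotated neighbour. The share was 35.8% for genes marked in both NV libraries, which lost genes must be, and 28.3% for all protein-coding genes. Overlapping lost genes such as AT3G06868 and AT3G06870 were counted separately. Coverage cannot be assigned to 1 of 2 overlapping genes.

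The 40 d libraries were not used by the rule of non-overlap, and the changed genes were read in them. Of the 23 gained genes with a gap of at least 25 points, 3 were marked in both 40V libraries, 1 in one of them and 19 in neither, so most of these gains were not seen at the end of cold. Of the 39 corresponding lost genes, 15 were still marked in both 40V libraries, 8 in one and 16 in neither. Over all 389 lost genes, 202 were marked in both 40V libraries, 82 in one and 105 in neither. For comparison, of the 10412 genes marked in both NV libraries, 9625 were marked in both 40V libraries, 480 in one and 307 in neither. Of all 27444 protein-coding genes, 10146 were marked in both, 1166 in one and 16132 in neither.

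**Figure D3:**
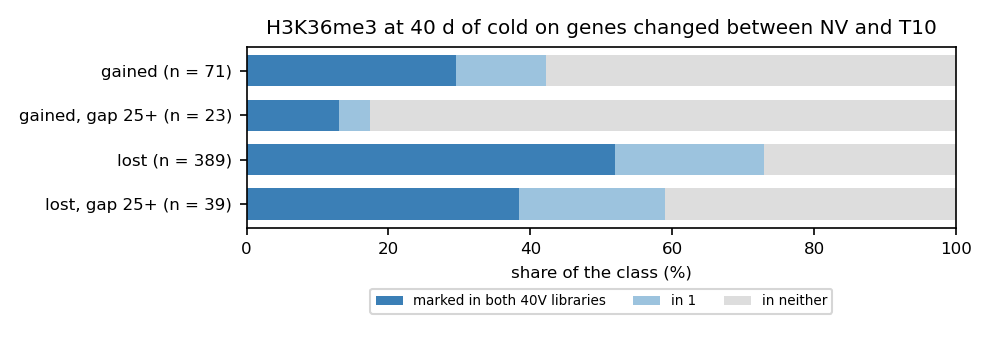
Share of gained and lost genes (all, and those with a gap of at least 25 points between groups) that were marked by H3K36me3 in both, in 1 or in neither of the 2 libraries from 40 d of cold. Of the 23 strongly gained genes 19 were marked in neither, while the 39 strongly lost genes divide into 15, 8 and 16. Not drawn: all 27444 protein-coding genes divide into 10146, 1166 and 16132, and the 10412 marked in both NV libraries into 9625, 480 and 307.

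Gained and lost genes nearly all carried H3K4me3, the mark of active promoters. H3K4me3 peaks touched 100% of the gained genes with a gap of at least 25 points in all 4 NV and T10 libraries of that mark, and 97.4% to 100% of the corresponding lost genes. The share was 99.9% in each library for genes marked by H3K36me3 in all 4 libraries and 65.4% to 68.5% for all protein-coding genes, so H3K4me3 was about as frequent on changed genes as on steadily marked ones. The Polycomb mark was rare on the lost genes: H3K27me3 peaks touched 0% of those with a wide gap in both NV libraries and 2.56% and 0% in T10, beside 0.687% to 1.87% of the genes marked by H3K36me3 in all 4 libraries. Of the 23 gained genes with a wide gap, H3K27me3 touched 5 and 4 in NV replicates 1 and 2 and 7 and 3 in T10. These were 21.7% and 17.4% in NV and 30.4% and 13.0% in T10. The shares were above the 0.687% to 1.87% of genes marked by H3K36me3 in all 4 libraries. Of all genes, H3K27me3 touched 20.3% and 16.1% in NV and 24.1% and 17.2% in T10. NAC046 carried both marks after return: H3K27me3 covered 100% and 86.9% of it in NV and 100% and 86.7% in T10. The H3K27me3 libraries were uneven between replicates, with 3.42 to 12.1 M filtered tags in NV and T10.

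Regions gave the same order of numbers without gene models. Joining the peaks of the 4 libraries gave 12430 regions, of which 89 (0.716%) were gained and 219 (1.76%) lost. Of these, 82 and 197 had no peak at all in the other group. Changed regions were short, with medians of 1007 bp for gained and 990 bp for lost against 1885 bp for the others, and only 3 of each lay outside protein-coding genes. The longest gained region, at chr1:21746807-21753462 over AT1G58602, was covered at 41.4% and 25.4% in NV and 94.1% and 97.6% in T10; this gene and AT4G19520, below, were chosen after their values were seen. A 2571 bp region at chr4:10644770-10647340 over AT4G19520 had no NV peak and coverages of 86.7% and 95.8% in T10. Without NV replicate 1 there were 392 lost regions, without NV replicate 2 179 gained, without T10 replicate 1 172 gained, and without T10 replicate 2 166 gained and 619 lost.

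RNA, a readout that the mark calls did not use, moved with H3K36me3 on part of the changed genes. The RNA values are the authors' normalised read counts, averaged over 2 replicates and not divided by gene length; the whole reads of the 2 libraries were recovered from the averages and tested with limma after voom weighting. Of all 18199 nuclear protein-coding genes tested, 13.8% rose and 10.6% fell after return at an adjusted p under 0.05. Of 68 gained genes tested, 15 rose (22.1%) and 4 fell (5.88%). Of the 21 tested with a gap of at least 25 points, 8 rose (38.1%) and 1 fell. Of the 56 tested genes that limma called higher in coverage, 22 rose (39.3%) and 1 fell (1.79%). All 3 classes had a larger share of rising RNA than the background, and gained genes with a narrower gap lay near it, with 7 rising (14.9%) and 3 falling of 47.

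On the lost side the RNA shares were nearer to the background in percentage points. The share of falling RNA still exceeded the 10.6% of all genes among all lost genes and among genes called lower by limma. Of 379 lost genes tested, 49 rose (12.9%) and 63 fell (16.6%), and of the 34 with a gap of at least 25 points 4 rose and 4 fell. Of the 100 tested genes that limma called lower in coverage, 7 rose (7.0%) and 25 fell (25.0%). The median log2 ratio of the authors' mean normalised counts, with a pseudocount of 1, was 0.18 over gained and -0.05 over lost genes, against -0.03 over all protein-coding genes. The RNA calls leaned on the deeper T10 RNA library: without it 6 gained genes rose and 2 fell, and 25 lost genes rose and 11 fell, and without the deeper NV RNA library 30 lost genes rose. Root marker genes moved with the groups: 5 of 11 fell in RNA and none rose, none was at 0 in any library, and their summed normalised counts were 88.1 and 108 in the NV and 57.4 and 58.5 in the T10 RNA libraries. Of these 11 genes 10 carried no H3K36me3 peak in any of the 4 libraries, and the part of root RNA in the counts above was not tested. Leaf senescence markers moved too: 3 of the 6 tested rose and none fell, none was at 0, and the summed normalised counts of the 6 were 45.04 and 45.05 in the NV and 158 and 140 in the T10 RNA libraries. The part of that shift in the H3K36me3 gains, NAC046 and ORE1 among them, was not tested.

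**Figure D4:**
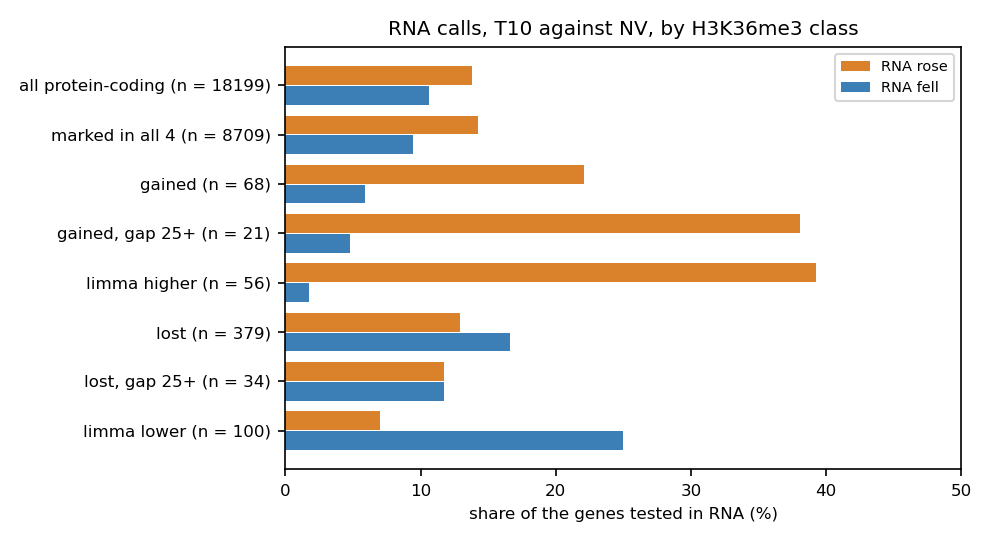
Percent of genes tested in RNA that rose (orange) or fell (blue) after return against no cold, for all protein-coding genes and for classes of H3K36me3 change; n is the number of genes tested in RNA. RNA rose for 39.3% of genes that limma called higher in H3K36me3 coverage against 13.8% of all genes, and fell for 25.0% of those called lower against 10.6%.

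Most genes with large RNA changes were neither gained nor lost. Of 427 genes whose RNA rose at least 4-fold, 51.5% had no H3K36me3 peak in any of the 4 libraries and 18.0% were marked in all 4, against 25.8% and 47.9% of all tested genes. Of 361 genes whose RNA fell at least 4-fold, 82.3% had no peak in any library and 3.32% were marked in all 4. Among the 427 rising genes 5 were gained and 5 lost (1.17% each), and among the 361 falling genes none was gained and 8 were lost (2.22%), against 0.374% gained and 2.08% lost of all genes tested in RNA. Across 13441 genes the coverage difference and the RNA log2 change had a Pearson r of 0.13 and a Spearman rho of 0.087; genes are not independent replicates and all values come from the same few libraries, so this is a description.

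Gained genes whose RNA rose most started from very low levels. AT3G08870 had mean normalised counts of 0.719 in NV and 3.95 in T10, a log2 change of 2.58 (SE 0.56, limma adjusted p = 0.00571), and coverages of 0% and 0% in NV and 57.8% and 51.4% in T10. AT1G22160 rose by 2.24 on the log2 scale (SE 0.36, limma adjusted p = 0.000943), with coverages of 0% in NV and 80.6% and 77.9% in T10. AT1G15790 and AT1G03340 rose by 2.55 and 2.46. The latter already showed 37.1% and 44.1% coverage at 40 d of cold. NAC046 rose from 2.89 to 7.72, with T10 library values of 5.37 and 10.1 above NV values of 3.17 and 2.62 (log2 change 1.09, SE 0.28, limma adjusted p = 0.0155).

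WRKY26, a transcription factor gene of the WRKY family, rose in RNA by 1.87 on the log2 scale (SE 0.35, adjusted p = 0.00279), but its coverage was 0% and 48.0% in NV, 61.4% and 81.3% in the cold and 74.8% and 72.3% in T10, so that the NV replicates differed from each other. DREB2C, an AP2/ERF factor of the heat and drought response, rose by 1.96 in RNA on the log2 scale while its coverage moved only from 42.5% and 45.4% to 51.3% and 53.2%. Some gained genes went the other way: SYP122 fell in RNA, with mean counts of 43.1 in NV and 25.3 in T10 (adjusted p = 0.0185, log2 change -0.80, SE 0.22) while its peak appeared. EXO70B2, an exocyst subunit gene, AT2G39210 and FBA8, a cytosolic aldolase gene, fell by 1.82, 1.76 and 1.42 on the log2 scale with gains of 9.44, 9.21 and 4.11 points.

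Lost genes whose RNA fell most included OFP15 and XT1. OFP15, of the OVATE family of growth repressors, had 54.3% and 58.4% coverage in NV and 0% in both 40V and both T10 libraries (-56.4 points, SE 2.54, limma adjusted p = 0.00585). Its RNA went from 9.18 to 1.56, a log2 change of -2.64 (SE 0.68, limma adjusted p = 0.0146). XT1, a xylosyltransferase that builds xyloglucan side chains, went from 65.2% and 62.8% to 45.2% and 45.1%, with an RNA log2 change of -2.40. AGP9, an arabinogalactan protein gene, and TET10, a tetraspanin gene, had RNA log2 changes of -2.35 and -2.26 (SE 0.50 and 0.64). For sks3, a gene of the SKU5-like glycoprotein family, it was -2.47 (SE 0.50). The T10 RNA libraries differed widely on AGP9, with 1.26 and 6.94 against 7.97 and 10.05 in NV. They also did on sks3, with 0.723 and 4.16 against 6.27 and 5.08. On TET10 they had 1.92 and 1.39 against 11.3 and 6.67. The T10 coverages of AGP9, sks3 and TET10 were 37.3% and 0%, 22.2% and 47.6%, and 27.9% and 35.9%. They lay below the NV coverages of these genes, 50.3% to 62.5% in each library.

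BAM3, the plastid beta-amylase of starch breakdown, ran against this. Its coverage was 68.5% and 72.1% in NV, 0% in both cold libraries and 0% and 13.0% in T10 (-63.8 points, SE 5.02, limma adjusted p = 0.0166). Over the same samples its mean normalised RNA count was 13.6 in NV, 138 at 40 d of cold and 140 in T10, a log2 change of 3.39 (SE 0.22, limma adjusted p = 3.52e-06). Coverage was high where RNA was low and low where RNA was high, and the NV and T10 libraries did not overlap in either readout. The NV peaks were weak, at chr4:9605507-9607178 in replicate 1 with a fold enrichment of 1.73, and at chr4:9604511-9605480 and chr4:9605708-9606949 in replicate 2 with 1.84 and 1.62. BAM3 overlaps 2 other annotated genes, and the limma call was lost without NV replicate 1 or 2 (adjusted p = 0.0871 and 0.112).

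PHS2, a cytosolic phosphorylase of starch-derived glucans, rose by 2.99 on the log2 scale in RNA while its coverage went from 55.4% and 56.9% to 39.6% and 46.1%. CRF6, a cytokinin response factor, rose by 2.28 with coverages of 51.0% and 50.1% in NV and 45.1% and 0% in T10. SMC5, of a complex for DNA repair, rose by 2.41 with coverages of 50.8% and 50.5% in NV and 34.0% and 41.3% in T10. All 3 crossed the 50% line from just above it in NV.

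Light capture genes with a peak lay against the general shift towards lower coverage. Of the 13 genes for light-harvesting proteins, Rubisco small subunits and the carbonic anhydrase CA1, 9 had a peak in at least 1 of the 4 libraries. The T10 mean lay above the NV mean in all 9. However, LHCB3, LHCB2.1, RBCS1A, RBCS3B and LHCB1.1 had no NV peak, so they entered the 9 through T10 alone and could only lie higher. The others were LHCA1 to LHCA4. In the list 2 genes were gained, 4 had every T10 library above every NV library, and none the reverse. The median difference was 18.1 points over the 9, set by RBCS3B with a peak in T10 replicate 2 alone, and 3.81 points over all 13. Over all 14272 genes tested, which also have coverage in at least 1 of the 6 libraries, it was -2.96 points. Non-overlapping T10 libraries were higher for 3.15% and lower for 19.6% of all 27444 genes. Of these 27444, 13037 had no peak in any of the 4 libraries and could not differ. LHCB3, an antenna protein of photosystem II, had 0% in NV and the cold and 57.6% and 73.0% in T10 (65.3 points, SE 5.6, limma adjusted p = 0.0193, and 0.132 and 0.146 without NV replicate 1 or 2). LHCB2.1, of the mobile antenna, went from 0% in all 4 NV and 40V libraries to 58.1% and 56.2% (57.2 points, SE 2.24, limma adjusted p = 0.00524); LHCB2.1 had no peak among the 11000 strongest of either T10 library.

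The photosystem I antenna genes LHCA1, LHCA2, LHCA3 and LHCA4 were marked in all 4 libraries, and each had its lowest coverage in the cold. LHCA4 had 81.9% and 82.2% in NV, 59.9% and 64.9% in the cold and 83.5% and 88.2% in T10. RBCS1A, RBCS3B and LHCB1.1 had a peak in T10 replicate 2 alone, with coverages of 46.8%, 36.3% and 45.8%. RNA did not rise with the mark: of 10 list genes tested none rose and 1 fell, and LHCB3 had mean normalised counts of 1114 in NV and 956 in T10, and LHCB2.1 of 770 and 559. LHCB1, LHCB2 and RBCS genes belong to families of near-identical copies, and how the authors placed reads that fit several copies is not given in the sources used here, so their values are uncertain.

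**Figure D5:**
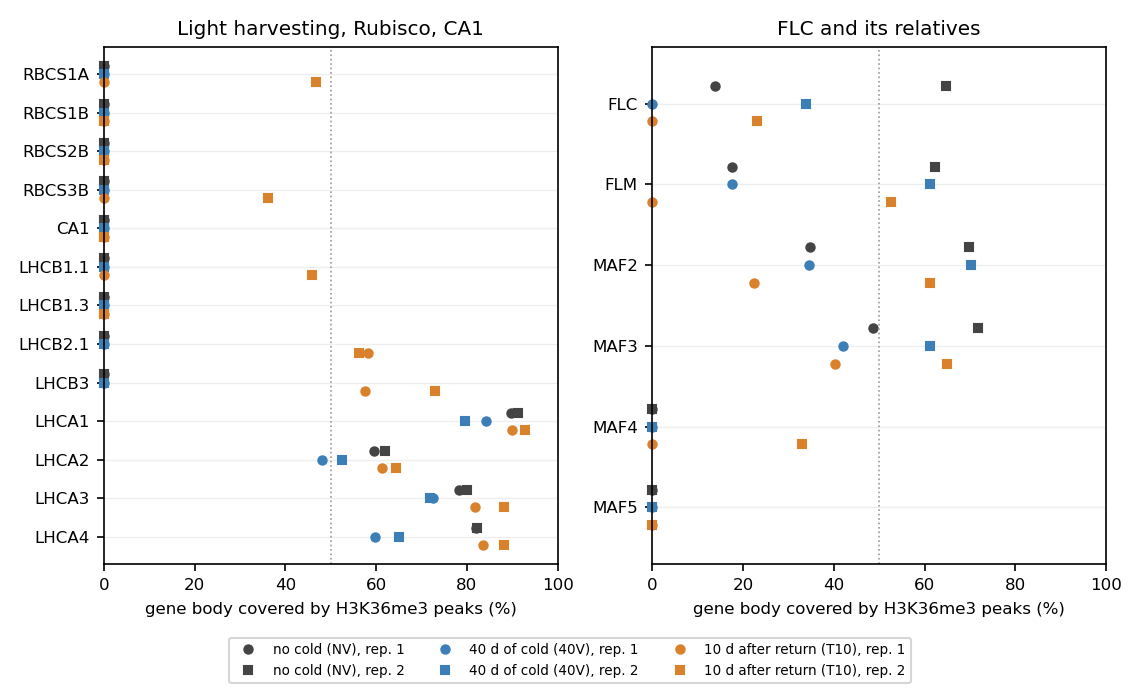
Percent of the gene body covered by H3K36me3 peaks in each of the 6 libraries for the light capture list (left, 13 genes) and for FLC and its relatives (right, 6 genes); circles are replicate 1, squares replicate 2, and the dotted line is the 50% used to call a gene marked. LHCB2.1 and LHCB3 are above the line only in the T10 libraries, whereas in FLC, FLM, MAF2 and MAF3 the NV replicates lie further apart than the group means.

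FLC, the floral repressor that vernalization silences, was not called by either rule. Its coverage was 13.9% and 64.8% in NV, 0% and 33.9% at 40 d of cold and 0% and 23.1% in T10, so the T10 replicate 2 value lay above the NV replicate 1 value (-27.8 points, SE 21.9, limma adjusted p = 0.601). In the length of each library's strongest FLC peak the groups did not overlap, with no peak taken as shortest. That holds only while adjacent peaks of T10 replicate 2 are counted apart. This was not a planned measure and carries no test. T10 replicate 1 had the fewest filtered tags, 8.49 M, and the part of depth was not tested. NV replicate 1 had an 842 bp peak at chr5:3178604-3179445 with a fold enrichment of 2.31, and T10 replicate 1 had none. NV replicate 2 had a 3106 bp peak at chr5:3176348-3179453 with 2.64 and an 829 bp peak with 1.51, and T10 replicate 2 had peaks of 719 and 684 bp with 1.51 and 1.61. In RNA, FLC fell from 17.3 to 5.53, with library values of 17.8 and 16.9 in NV and 6.03 and 5.03 in T10 (log2 change -1.57, SE 0.23, limma adjusted p = 0.000593). In the libraries of the opposing mark, H3K27me3 covered 0% and 0% of FLC in NV, 88.2% and 15.4% at 40 d of cold and 94.4% and 50.6% in T10. H3K4me3 covered 16.0% and 16.8% in NV, 29.4% and 30.9% at 40 d of cold and 15.6% and 14.4% in T10. Its coverage was thus higher in the cold and near the NV values after return.

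The relatives of FLC showed the same spread between replicates. MAF2 had 34.6% and 69.8% coverage in NV and 22.4% and 61.1% in T10, and MAF3 had 48.6% and 71.7% and 40.3% and 65.0%; both of them code for MADS-box repressors of flowering. In each, replicate 2 lay far above replicate 1 in every condition. MAF4 had a peak in T10 replicate 2 alone, with 32.9%, and MAF5 had none in any library. MAF2 RNA rose by 1.05 on the log2 scale (SE 0.28, limma adjusted p = 0.0175). VIN3, induced by cold to recruit Polycomb to FLC, and SOC1, a floral activator that FLC represses, had no H3K36me3 peak in any of the 6 libraries. SOC1 nevertheless rose in RNA from 0.259 to 12.2 mean normalised counts (limma adjusted p = 0.000345).

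The genes whose products write, erase and read the mark were neither gained nor lost. SDG8 was covered at 78.9% and 78.3% in NV, 67.3% and 69.5% in the cold and 71.7% and 74.99% in T10 (-5.27 points, SE 1.81, limma adjusted p = 0.385), while its RNA rose by 1.27 on the log2 scale (SE 0.34, limma adjusted p = 0.0176). Of 10 genes for H3K36 methyltransferases, demethylases and readers 8 had a peak in at least 1 of the 4 libraries and 6 were marked in all 4. Both T10 libraries lay below both NV libraries on 6 of the 10. Of all 27444 genes 19.6% lay lower in this way, but 13037 of the 27444 had no peak in any of the 4 libraries and could not. The 6 genes of the Paf1 complex, which couples elongation to histone marks, and the 5 of the FRI complex, which activates FLC, were neither gained nor lost, with 5 of 6 and 5 of 5 marked in all 4 libraries.

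Of 13 Polycomb genes of the vernalization pathway, CLF, an H3K27 methyltransferase of Polycomb, was lost. It had 54.3% and 56.7% coverage in NV, 58.1% and 61.8% in the cold and 25.7% and 33.0% in T10 (-26.1 points, SE 3.47, limma adjusted p = 0.0695, and 0.042 with library means made equal). The CLF peak shortened from 3812 and 4069 bp in NV to 2171 and 2724 bp in T10, at chr2:9954154-9957965 in NV replicate 1 and chr2:9954283-9956453 in T10 replicate 1, and with fold enrichments of 2.97, 2.76, 2.96 and 2.80. CLF RNA was 5.51 in NV, 19.3 at 40 d of cold and 4.89 in T10, with no call between NV and T10 (limma adjusted p = 0.662). CLF overlaps 2 annotated genes.

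No cold acclimation or clock gene was gained or lost, where 0.259% of all protein-coding genes were gained and 1.42% lost. Of 22 cold acclimation genes 16 had no H3K36me3 peak in any of the 4 libraries, while 8 of 22 rose in RNA and none fell, beside 13.8% rising and 10.6% falling of all protein-coding genes. Of 18 clock genes 12 were marked in all 4 libraries, while 13 of 18 rose in RNA and none fell. Of 12 sulfur deficiency genes 11 rose in RNA, 6 had no peak in any library and none was gained or lost. The 20 genes of floral promotion included 15 with no peak, and all 7 of those tested in RNA rose. Of 11 genes of sugar, starch and proline metabolism 6 rose in RNA and BAM3 alone was lost. Of 8 leaf senescence markers ORE1 was gained and 5 had no peak, and 3 of 6 tested in RNA rose.

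The remaining lists held no gained or lost gene. Of 10 other floral repressors 2 were marked in all 4 libraries and 6 had no peak. Of 11 flavonoid genes 10 had no peak, as had 7 of 8 cell enlargement genes, of which 5 fell in RNA and 1 rose. Over all 204 list genes 67 were marked in all 4 libraries, 98 had no peak, 3 were gained, 2 were lost, and limma called 2 higher and 1 lower. Of all 27444 genes 9020 were marked in all 4 libraries and 13037 had no peak. With 0.259% of them gained and 1.42% lost, lists of this size would hold few calls or none. The absence of a call therefore says little about a list.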

How the data were processed

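ChIP-seq peaks were called by the authors in each library against the input of its time point with MACS2 2.1.1.20160309, per the file headers (600 bp extension, q-value limit 0.05, 1 tag kept per position). The deposited peak files give a pileup signal, a −log10 p-value and q-value and a fold enrichment ratio per peak. RNA values are a signal deposited by the authors as averaged normalised counts. Bowtie2, TopHat, edgeR and TAIR10 are named in the submitters' processing notes without versions. Coverage is the share of a RefSeq gene (TAIR10.1, 27444 protein-coding genes of chromosomes 1 to 5) inside peaks. No shift between that frame and the peaks was found: the best shift over 39 windows had a median of 0 bp (range -150 to 50 bp). Coverage was tested with limma 3.58.1 in R 4.3.3 (T10 against NV, 6 libraries, trend, no covariate, the 14272 genes with a mean coverage above 0 and below 100%). On simulated data with the observed spread it found 26% of changes of 30 points and 0% of 15, over 14272 genes. The changes were put into 200 genes of middle mean coverage only. Most called genes had no peak in either library of 1 group, so these shares do not describe such genes. Regions joined peaks within 200 bp.

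RNA averages were split into whole reads of a deeper and a shallower library where only 1 split fitted (relative tolerance 1e-12), which held for 99.86% to 99.89% of genes per column; the libraries then had 42.3 and 34.0 M effective reads in NV and 31.8 and 5.77 M in T10. Limma with voom used all 14 RNA libraries and 18744 genes, and on simulated data it found 19% of 2-fold and 92% of 4-fold changes. Exact permutation tests were run with scipy 1.17.1. Members and the 18 gene lists (204 genes) were chosen with earlier results of these data known. Genes are named where they had the widest gaps (12 each way, at least 1000 bp), the largest RNA changes among gained or lost genes (8 or 4 a class), a call within a list, or are FLC, MAF2 to MAF5, VIN3, SOC1 or SDG8. Intervals of counting error were not formed, since coverage is a length and not a count.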

Additional observations from a re-analysis of the deposited data

Results flagged for a closer look

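T10 replicate 1 had 3 H3K36me3 peaks on the plastid chromosome, which lies outside the nuclear comparison and carries no histones, and the NV libraries had none there. They were 1162, 746 and 600 bp long, with fold enrichments over input of 1.21, 1.22 and 1.18 in the authors' list. This library also had the fewest filtered tags, 8.49 M, and the smallest share of tags kept after removal of duplicates, 14.3% against 28.3% to 70.2% in the other 3 libraries of the comparison.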

How the results depend on the processing

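The covered length and the peak number were lower in T10 under every alternative run for them, but the counts of genes moved and which direction held more calls could turn. Which genes were called also turned over with the line for marked genes. A 30% line gave 77 gained and 226 lost genes, of which only 20 and 36 were calls at 50%. A 70% line gave 54 and 286, of which only 9 and 12 were. A gap of at least 25 points gave 23 gained and 39 lost, and 1 of 50 points (chosen after seeing the data) 19 and 30. Among other alternatives added after seeing the data, peaks of at least 2.5-fold enrichment gave 118 gained genes and limma counts of 111 higher and 62 lower, T10 replicate 2 against NV replicate 1 alone gave 623 gained and 562 lost, and equal library means gave 54 lower. Limma on 4 libraries gave 36 higher, and with no filter 57 lower. Requiring 75% of a region gave 148 gained and 413 lost regions. Leaving out each library gave 103 to 186 gained and 460 to 1317 lost genes, 39 to 113 higher and 58 to 188 lower limma calls (106 higher against 58 lower without T10 replicate 1), and 112 to 179 gained and 275 to 619 lost regions. Leaving out each RNA library gave 6 to 15 gained genes that rose, 2 to 6 that fell, 25 to 62 lost genes that rose and 11 to 71 that fell. The labels do not tie equal replicate numbers to a shared growth, and with 2 pairs the numbers were not taken as pairing; deviations of same-numbered libraries had r = 0.41 across genes for NV and T10, 0.38 for NV and 40V and 0.42 for 40V and T10. With the replicate block limma called 38 higher and 71 lower, and 19 gained and 30 lost genes changed by at least 50 points in both pairs. With 1 library left out the difference of MAF2 ran from -29.84 to 8.90 points and that of MAF3 from -19.91 to 4.85, turning upward without T10 replicate 1 and, to 7.10 and 4.04, without NV replicate 2. Replicate 2 was above replicate 1 in both groups on both genes, so these settings set a mean with a low library against a high one; T10 was lower than NV within each number. By the smaller of ChIP and input tags, every T10 library was shallower than every NV library. The part of depth in the losses was not tested.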
